A study of Homo sapiens with 8 samples.

Results

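Ribosome biogenesis and nucleolar factors were followed as 53 genes of known role, picked by symbol from the 57169 gene symbols of the deposited count table. The members comprised 5 genes of RNA polymerase I and its initiation factors, 7 nucleolar proteins with several roles, 5 genes of box C/D small nucleolar ribonucleoproteins and of RNA modification, 15 of the small subunit processome, 5 of late 40S maturation and 16 of 60S assembly. All 53 passed the filter on low counts, which 21378 genes passed in all. The lowest count of a member in any library was 26, for NOP2.

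RNA came from 2 human colorectal carcinoma cell lines, HCT116 and SW620, the latter grown from a lymph node metastasis. In each line, 1 group was given 5-fluorouracil (5-FU), the antimetabolite used against colorectal cancer, and the other was given AFZC, both for 24 h and each at the IC50 found for it in that line. The labels state neither dose. AFZC is, per the title of the series, an aptamer-bearing metal-organic framework loaded with 5-FU, so all 4 groups received 5-FU in some form and every treatment effect below is AFZC relative to free 5-FU. Untreated cells were not analysed here. Each group had 2 libraries, called replicates 1 and 2. Since the labels do not say whether replicates were separate cultures, the p-values reflect only how far these libraries vary, and that variation may be technical.

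Ribosomes are assembled mainly in the nucleolus, where RNA polymerase I transcribes a long rRNA precursor. The small subunit processome and the small nucleolar ribonucleoproteins fold, modify and cleave that precursor, and the precursors of the 40S and 60S subunits then mature along separate paths. The transcription factor MYC is known to raise the genes of this pathway in growing tumour cells, and 5-FU is known to enter RNA and to disturb rRNA processing. The libraries were made from polyadenylated RNA, so the values below are mRNA levels, and neither rRNA nor its processing was measured. In RNA from many cells, fewer cells of a type and less RNA per cell cannot be told apart.

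Total counts ran from 31991561 to 40590291 per library. The 53 members together took 0.601% to 0.734% of the counts in HCT116 and 0.453% to 0.566% in SW620. Levels are given as CPM, counts divided by library size and scaled with TMM factors, which were 1.02 to 1.07 in HCT116, 0.816 and 0.867 in SW620 under 5-FU and 1.07 and 1.11 in SW620 under AFZC. This scaling matters most in SW620: without it the median log2 fold change of all genes tested under AFZC there is 0.40 in place of 0.03. The 2 AFZC libraries of a line differed in these genes, with replicate 2 above replicate 1 in 45 of 53 members in HCT116 (median log2 difference 0.16) and in 46 of 53 in SW620 (median 0.33). Of the 5-FU libraries, replicate 2 was the higher in 21 of 53 members in HCT116 and in 11 of 53 in SW620. Such counts were not made over all genes tested, so these differences are not read as particular to the members. Of 10 epithelial markers, 9 or 10 had counts in every library.

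Compared per exon length, in TPM, the members ranged over a wide scale. NPM1, nucleophosmin, an abundant nucleolar chaperone, had the highest level in every group, at 679 and 642 TPM in replicates 1 and 2 of HCT116 under 5-FU, 541 and 706 under AFZC, 871 and 949 in SW620 under 5-FU and 450.1 and 646 under AFZC. NCL, nucleolin, a nucleolar RNA-binding protein, came next in HCT116, at 383 and 430.0 TPM under 5-FU and 347 and 507 under AFZC. In SW620 the second place belonged to DDX21, a helicase of rRNA transcription and processing, at 472 and 447 TPM under 5-FU and 370.0 and 493 under AFZC. NPM1 lay above the second member within each of the 8 libraries, though in SW620 under AFZC replicate 1 of NPM1 lay below replicate 2 of DDX21. The median member stood at 47.4, 53.4, 36.2 and 48.0 TPM in the 4 groups in the same order. NOP2, an rRNA methyltransferase, was lowest by group mean in all 4 groups, at 0.613 to 0.806 TPM. This level is uncertain, since 54.4% of its exon bases are shared with AC006064.6, a gene listed at 0 counts in all 8 libraries. The same holds for PPAN, a 60S factor, with 59.8% of exon bases shared with PPAN-P2RY11, which is also listed at 0 throughout.

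**Figure D1:**
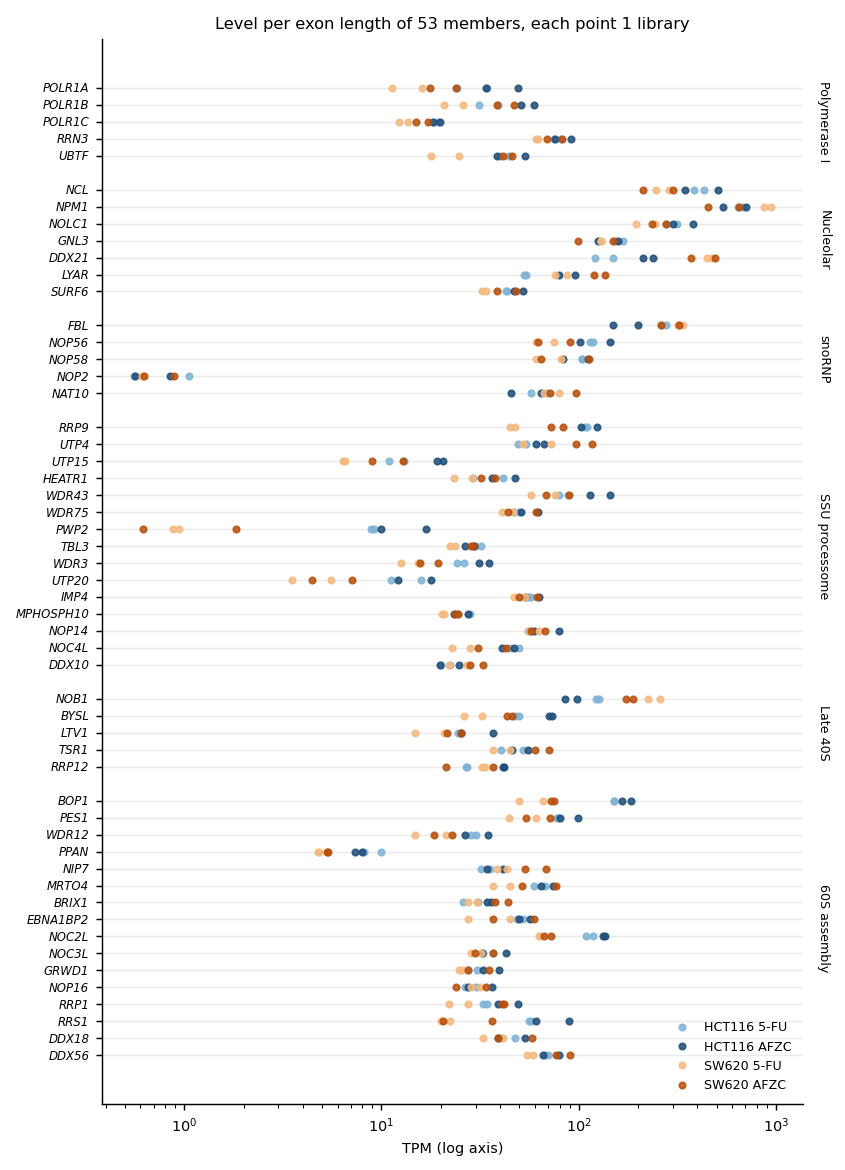
Level of each of the 53 members in each library, in TPM on a log axis, with the members grouped by role and 1 point for each library. NPM1 has the highest group mean in every group and NOP2 the lowest, and PWP2 splits into HCT116 points of 9.03 and 13.4 TPM on average and SW620 points of 0.907 and 1.22 TPM.

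The starts of these genes share letters that their choice did not use. RefSeq windows of 250 bases before to 50 after an annotated start (GRCh38.p14) were at hand for 46 of the 53 members, 56 windows in all. NOLC1, MPHOSPH10, BOP1, RRS1, NOP58, DDX18 and RRP12 had no window. CACGTG, the E-box letters that MYC with its partner MAX is known to bind, stood on either strand in the windows of 20 of 46 members (43.5%), against 8.77% of the 27305 genes with such windows. CCGGAA, the core that ETS factors recognise, stood in 28 members (60.9% against 20.1%). The other sets searched on both strands were AAGATGG, a YY1 core, in 9 members (19.6% against 7.11%), TCTCGCG in 6 (13.0% against 4.17%) and GCGCATG, an NRF1 half-site, in 3 (6.52% against 5.30%). A start at C followed by 4 pyrimidines, the beginning of the terminal oligopyrimidine tract of ribosomal protein mRNAs, was found in 5 members (10.9% against 5.14%). The windows of the members were also richer in G and C (median 64.7% against 58.7%), and the E-box, ETS and NRF1 letters themselves hold more G and C than A and T, unlike the YY1 letters. None of these matches shows that a factor bound there.

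The stretches below, printed 5′ to 3′ on the strand of the gene with the searched letters in capitals, end before both the RefSeq and the GENCODE start and show how these letters sit in members that the comparisons below turn on (DDX21, LYAR, FBL, NOB1, UTP20) and in LTV1, WDR3 and SURF6. DDX21 (chr10:68956028-68956127, plus strand), LYAR (chr4:4290170-4290269, minus) and FBL (chr19:39846415-39846594, minus) carry CCGGAA. WDR3 (chr1:117929660-117929719, plus) carries it on both strands in an overlapping pair. NOB1 (chr16:69754941-69755080, minus) carries GCGCATG on both strands in an overlapping pair. LTV1 (chr6:143843178-143843337, plus) carries CCGGAA on each strand around TCTCGCG. UTP20 (chr12:101280045-101280104, plus) and SURF6 (chr9:133336399-133336438, minus) carry CACGTG.
DDX21: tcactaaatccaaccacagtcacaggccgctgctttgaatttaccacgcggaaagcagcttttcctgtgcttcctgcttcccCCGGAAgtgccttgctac
LYAR: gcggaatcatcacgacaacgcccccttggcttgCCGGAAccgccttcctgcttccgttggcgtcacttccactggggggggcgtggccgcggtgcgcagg
FBL: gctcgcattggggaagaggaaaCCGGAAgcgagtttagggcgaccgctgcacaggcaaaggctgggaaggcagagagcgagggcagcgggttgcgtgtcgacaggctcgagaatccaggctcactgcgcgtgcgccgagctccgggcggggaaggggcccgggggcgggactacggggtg
NOB1: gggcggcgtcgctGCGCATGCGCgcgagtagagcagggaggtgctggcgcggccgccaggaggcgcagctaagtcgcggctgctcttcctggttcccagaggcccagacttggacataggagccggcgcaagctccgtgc
LTV1: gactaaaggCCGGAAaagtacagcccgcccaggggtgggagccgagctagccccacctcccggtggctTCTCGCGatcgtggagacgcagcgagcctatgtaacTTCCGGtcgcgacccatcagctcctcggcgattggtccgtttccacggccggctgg
WDR3: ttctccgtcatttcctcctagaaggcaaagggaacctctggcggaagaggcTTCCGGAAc
UTP20: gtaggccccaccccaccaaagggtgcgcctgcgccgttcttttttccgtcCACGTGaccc
SURF6: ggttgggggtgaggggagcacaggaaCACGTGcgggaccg

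In HCT116, 6 of the 53 members were higher under AFZC than under 5-FU and 1 was lower, all by less than 2-fold. The 6 were DDX21, UTP15, LYAR, POLR1B, WDR43 and BYSL, spread over transcription by polymerase I, the nucleolus, the small subunit processome and late 40S maturation. The 1 that fell was FBL, fibrillarin, the methyltransferase of box C/D particles. The members higher were 11.3% of the list, where 5.87% of all genes tested were higher, and the members lower 1.89%, where 3.74% of all genes were lower (edgeR's quasi-likelihood test, Benjamini-Hochberg adjusted p under 0.05, as in every count below). The median log2 fold change was 0.13 over the members and 0.00 over all genes tested.

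DDX21 (chr10:68956128-68985073, GRCh38) stood at 195 and 221 CPM in replicates 1 and 2 under 5-FU and at 340.4 and 354 CPM under AFZC. The groups lay well apart, and the log2 fold change was 0.74 ± 0.18 (SE; edgeR, adjusted p = 0.0221). LYAR, a nucleolar protein of cell growth (chr4:4267701-4290169), rose from 39.2 and 37 CPM to 71.1 and 54.6 CPM, by 0.72 ± 0.164 (adjusted p = 0.0158), with replicate 1 of AFZC the higher. The other 5 nucleolar proteins did not pass the test. NCL had 853 and 878 CPM under 5-FU and 766 and 1035 under AFZC, so that the 5-FU libraries lay between the AFZC libraries. NPM1 overlapped likewise, at 835 and 724 and then 660.2 and 797 CPM, and the 95% interval of its log2 fold change was -0.54 to 0.35.

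Among the polymerase I genes, POLR1B, the second largest subunit (chr2:112541915-112577150), rose from 63.7 and 72.7 to 103 and 111 CPM, by 0.65 ± 0.163 on the log2 scale (adjusted p = 0.0253). The libraries of its 2 groups did not overlap. POLR1A, the largest subunit, had 105 and 137 and then 146 and 197 CPM, without overlap but with a spread between replicates that left a log2 fold change of 0.50 ± 0.217 short of the threshold (adjusted p = 0.174). RRN3, the factor that recruits the polymerase to its promoter, had a log2 fold change of 0.08 ± 0.148 (adjusted p = 0.804). UBTF, the upstream binding factor of ribosomal DNA, had one of 0.11 ± 0.174 (adjusted p = 0.765), and its AFZC libraries fell on either side of the 5-FU libraries.

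Of the 15 genes of the small subunit processome, the large particle that assembles on the nascent precursor, 2 rose and 0 fell (3 and 0 at an unadjusted p under 0.05, and 2 and 0 by DESeq2), with a median of 0.22. UTP15, of its UtpA module (chr5:73565443-73583377), stood at 22.2 and 24.3 CPM under 5-FU and 38.7 and 38.3 under AFZC, a log2 fold change of 0.73 ± 0.203 (adjusted p = 0.0406). WDR43, of the same module (chr2:28894643-28948222), rose from 105 and 108 to 149.7 and 175 CPM, by 0.61 ± 0.177 (adjusted p = 0.0469). Both genes had each AFZC library above each 5-FU library. The log2 fold changes of the other 13 ran from -0.15 for TBL3 to 0.55 for PWP2, which is treated apart below. In late 40S maturation, BYSL, bystin (chr6:41921188-41933046), rose from 34.5 and 33.2 to 50.7 and 48.8 CPM, by 0.55 ± 0.162 (adjusted p = 0.0484), the smallest of the called changes. NOB1, the endonuclease that makes the final cut of the small subunit rRNA, went the other way, from 82.9 and 79.2 to 57.8 and 61.4 CPM. It missed the threshold in edgeR, at -0.44 ± 0.141 (adjusted p = 0.0669). DESeq2 called 1 of the 5 late 40S genes lower, and NOB1 was the only 1 of them below 0. LTV1, an export factor of the 40S precursor that shares 34.8% of its exon bases with AL049844.3, had a log2 fold change of 0.31 ± 0.24 (adjusted p = 0.474).

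FBL (chr19:39834458-39846414) fell from 193 and 167 CPM under 5-FU to 104 and 129 CPM under AFZC, a log2 fold change of -0.63 ± 0.171 (adjusted p = 0.0354). The groups did not overlap. Its partners in the box C/D particle did not pass the test: NOP56 had 0.07 ± 0.2 (adjusted p = 0.897) and NOP58 had -0.11 ± 0.235 (adjusted p = 0.843). The acetyltransferase NAT10 had -0.21 ± 0.186 (adjusted p = 0.536) and NOP2 had -0.16 ± 0.502 (adjusted p = 0.899) with 28 to 52 counts per library. Of the 16 genes of 60S assembly, 0 were called by edgeR (1 higher and 0 lower at an unadjusted p under 0.05, 0 and 0 by DESeq2), and their log2 fold changes lay between -0.25 for PPAN and 0.38 for RRP1. The PeBoW complex, which processes the large subunit precursor, had values of 0.20 ± 0.152 for BOP1, 0.18 ± 0.184 for PES1 and 0.05 ± 0.186 for WDR12 (adjusted p = 0.452, 0.595 and 0.914).

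Leaving out single libraries changed the number of calls, over all genes as over the members. Without replicate 1 or 2 of 5-FU or replicate 1 of AFZC in HCT116, 0 members were higher and 0 lower (edgeR), while over all genes the calls went from 1254 higher and 800 lower to 216 and 89, 383 and 242, and 509 and 269 in these 3 fits. Also, without replicate 2 of AFZC 1 was higher, LYAR, and 1 lower, FBL. Without either 5-FU library of SW620, which enters through the shared estimate of spread, the calls of UTP15, WDR43, BYSL and FBL were lost, and without either AFZC library of SW620 there were 7 higher and 2 lower. The direction of all 7 was kept in all 15 other fits, with log2 fold changes of 0.65 to 0.81 for DDX21, 0.51 to 0.88 for LYAR and -0.82 to -0.49 for FBL. The call of BYSL was also lost with the size factors of DESeq2 in edgeR and without the filter on low counts.

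**Figure D2:**
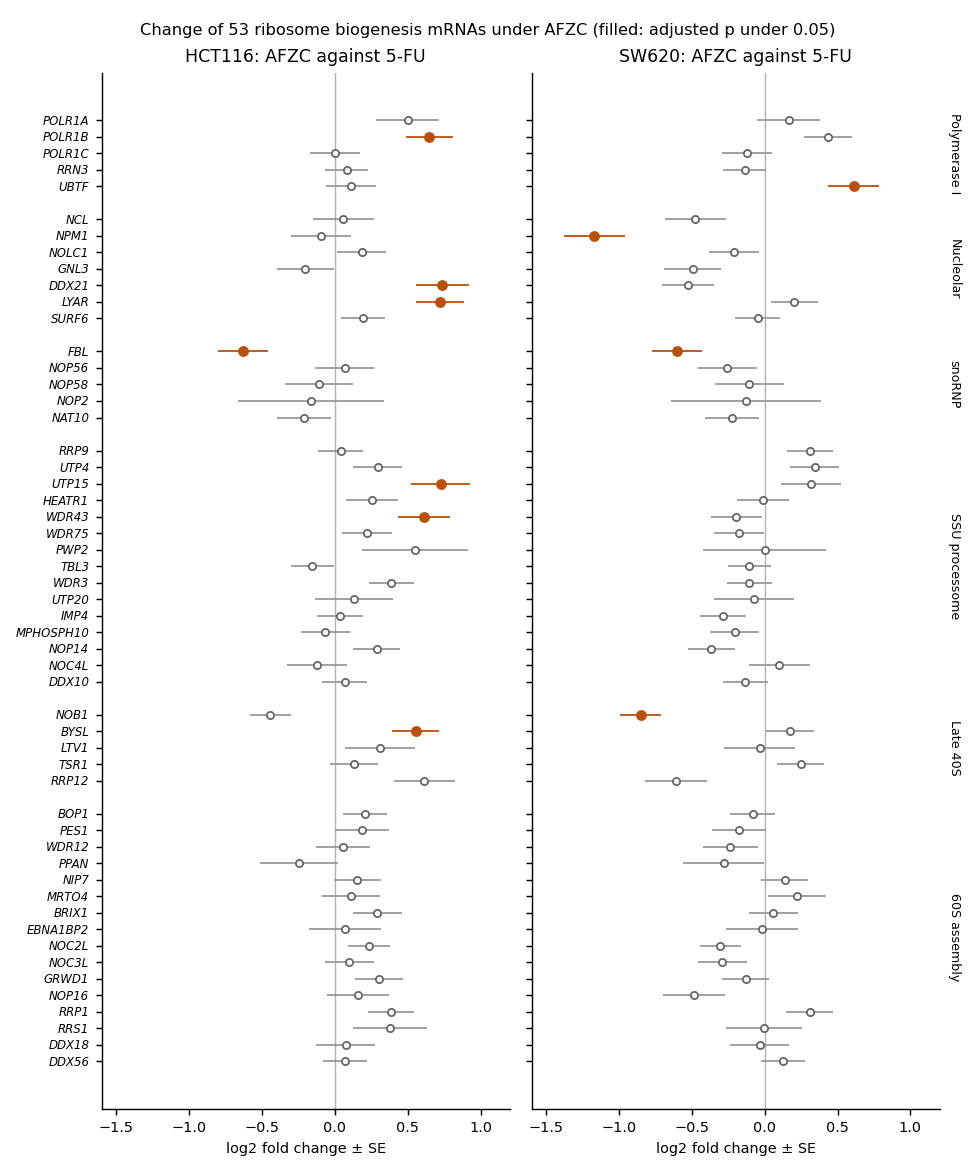
Log2 fold change under AFZC against 5-FU of each of the 53 members in HCT116 (left) and SW620 (right), as point and SE, grouped by role; filled points had an adjusted p under 0.05. In HCT116 6 filled points lie above 0 and FBL below, and in SW620 UBTF lies above 0 and NPM1, NOB1 and FBL below.

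In SW620, 3 members were lower under AFZC than under 5-FU, NPM1, NOB1 and FBL, and 1 was higher, UBTF. The members lower were 5.66% of the list, where 6.95% of all genes tested were lower, and the members higher 1.89%, where 11.6% of all genes were higher. The median log2 fold change was -0.11 over the members and 0.03 over all genes. With library sizes in place of TMM factors, 12 members were higher and 2 lower and the median was 0.26 (0.40 over all genes), and the median was also above 0 without replicate 1 of 5-FU (0.01) or replicate 1 of AFZC (0.05), so the sign of the median depended on the scaling and on single libraries. Without replicate 2 of AFZC 8 members were lower, and without either 5-FU library or replicate 1 of AFZC 2 were.

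NPM1 (chr5:171387116-171411137) had the largest change of any member under treatment, from 1113 and 1269 CPM in replicates 1 and 2 under 5-FU to 430.2 and 629 CPM under AFZC. The log2 fold change was -1.17 ± 0.21 (SE; edgeR, adjusted p = 0.00232), a 2.25-fold fall, and the 2 groups lay far apart. It was called in all 15 other fits, at values from -1.47 to -0.79. NPM1P27, a pseudogene copy that shares 10.3% of the 50-base words of NPM1, fell with it, from 29.8 and 33.6 to 11.7 and 13.8 CPM (log2 fold change -1.32 ± 0.246, adjusted p = 0.00301), and the assignment of reads common to both is unknown here. NCL had 659 and 594 CPM under 5-FU and 368 and 532 under AFZC, without overlap, and missed the threshold at -0.48 ± 0.21 (adjusted p = 0.135). DDX21 went from 790.1 and 784 to 464 and 629.7 CPM, also without overlap and short of the threshold (-0.53 ± 0.179, edgeR, adjusted p = 0.0587). DESeq2 called 2 of the 7 nucleolar genes lower, where edgeR called 1.

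NOB1 (chr16:69741867-69754940) fell from 182 and 166 CPM to 99.5 and 93.2 CPM, by 0.85 ± 0.141 on the log2 scale (adjusted p = 0.00146). It too was called in all 15 other fits, at -0.92 to -0.48. Of its exon bases, 20.3% are shared with AC092115.3, which had at most 0.861 CPM in any library. FBL fell from 244 and 242 to 142 and 178 CPM, by 0.60 ± 0.17 (adjusted p = 0.027), nearly the same change as in HCT116. Scaled by library size alone, FBL had -0.23 (adjusted p = 0.342) and was no longer called, nor was it without either 5-FU library or replicate 1 of AFZC. UBTF (chr17:44205033-44221626) rose from 57.4 and 43.5 to 72.6 and 81.6 CPM, by 0.61 ± 0.176 (adjusted p = 0.0293), to levels still below those of HCT116. The call of UBTF was lost without replicate 2 of 5-FU or AFZC, and also without either 5-FU library of HCT116, which bear on it through the shared estimate of spread. The other polymerase I genes did not pass: POLR1B had 0.44 ± 0.163 (adjusted p = 0.0822), POLR1A 0.16 ± 0.218 (adjusted p = 0.654) and RRN3, with 24.95% of its words shared with other transcripts, -0.14 ± 0.149 (adjusted p = 0.566).

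The small subunit processome had 0 of 15 members called in SW620 (0 higher and 1 lower at an unadjusted p under 0.05, 0 and 0 by DESeq2), with values between -0.37 for NOP14 and 0.34 for UTP4. The 60S genes had 0 of 16 called (0 and 1 unadjusted, 0 and 0 by DESeq2), between -0.49 for NOP16 and 0.31 for RRP1. BOP1, PES1 and WDR12 had log2 fold changes of -0.08 ± 0.153, -0.18 ± 0.184 and -0.24 ± 0.188 (adjusted p = 0.765, 0.549 and 0.418). In the box C/D particle, NOP56 had -0.26 ± 0.201 (adjusted p = 0.411) and NOP58 -0.11 ± 0.236 (adjusted p = 0.81), while NAT10 had -0.23 ± 0.186 (adjusted p = 0.435), NOP2 -0.13 ± 0.513 (adjusted p = 0.908) and LTV1 -0.03 ± 0.242 (adjusted p = 0.961). Markers of the line itself and of other cell types also moved with AFZC. Summed over 10 epithelial markers the level was 15319 and 16694 CPM under 5-FU and 5579 and 5152 CPM under AFZC, as the keratins KRT8 (-2.04 ± 0.265, adjusted p = 0.000279), KRT18 (-1.97 ± 0.248, 0.000221) and KRT19 (-1.46 ± 0.237, 0.00127) fell, while KRT20, of differentiated colon cells, rose (3.15 ± 0.418, 0.000326). Summed over 7 leukocyte markers the level was 6.89 and 8.82 CPM under 5-FU and 48.2 and 24.6 CPM under AFZC, and over 4 endothelial markers 5.51 and 5.26 CPM and then 18.3 and 13.6 CPM. LYZ, the lysozyme gene, made up most of the first, while PTPRC and CD3E, which define leukocytes and T cells, had 0 counts in both AFZC libraries. Of these lists, 5 of 7 and 3 of 4 had counts in each AFZC library, and KDR, which defines endothelium, had 0 counts in all 4 libraries of the line. Over 7 fibroblast markers the sum was 52.8 and 57.3 CPM and then 81.5 and 49.3 CPM, with FAP at no more than 1 count in any library. Besides LYZ, higher under AFZC were CSF1R (2.97 ± 0.427, edgeR, adjusted p = 0.000575), VWF (1.95 ± 0.291, 0.000746) and PDGFRB (2.11 ± 0.323, 0.000864). The fibroblast markers LUM (0.15 ± 0.313, 0.802) and COL1A1 (-0.01 ± 0.191) did not pass. In HCT116 the epithelial sum was 4427 and 3588 CPM under 5-FU and 8085 and 4989 CPM under AFZC. There KRT19 (0.99 ± 0.235, edgeR, adjusted p = 0.0192), VIL1 (4.51 ± 0.758, 0.00578) and PDGFRB (1.30 ± 0.374, 0.0461) were higher. The last 2 were near the floor: VIL1 had 4 and 0 counts under 5-FU and 74 and 28 under AFZC, and PDGFRB 16 and 16 and then 45 and 38. VIL1 also shares 44% of its exon bases with USP37 on the opposite strand. KDR was lower (-3.58 ± 0.776, 0.0167). The part of these markers in the values of the members was not tested.

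**Figure D3:**
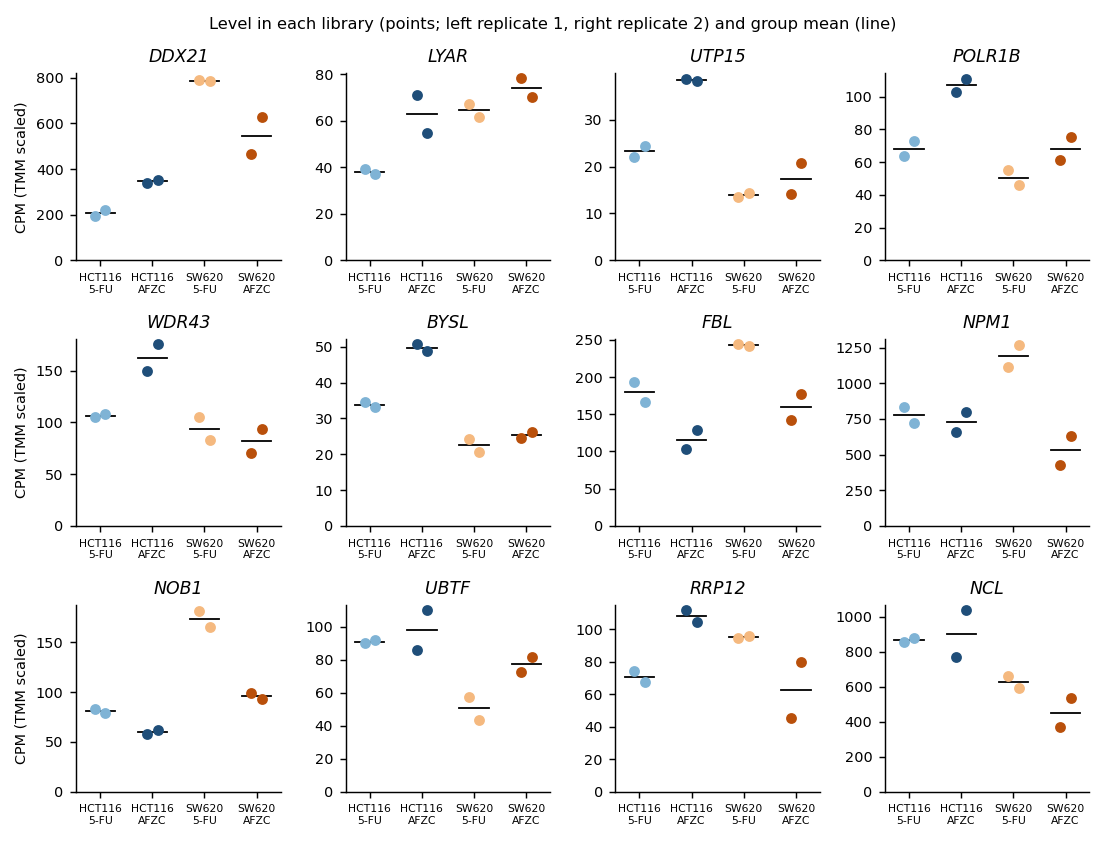
Level of 12 members in CPM scaled with TMM factors, 1 point for each library (left replicate 1, right replicate 2) and a line at the group mean. DDX21, LYAR, UTP15, POLR1B, WDR43 and BYSL lie higher under AFZC in HCT116, FBL lies lower in both lines, and NPM1 and NOB1 lie lower under AFZC in SW620.

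Whether the lines answered AFZC differently was tested as the difference of the 2 treatment effects, SW620 minus HCT116. The difference was below 0 for 42 of the 53 members, with a median of -0.29 (0.04 over all genes tested). With library sizes only, the median was 0.06 (0.39 over all genes). In this test 3 members were lower and 0 higher (8 and 0 at an unadjusted p under 0.05, 4 and 0 by DESeq2), that is 5.66% and 0%, where 4.14% and 5.65% of all genes tested were lower and higher. DDX21 had the largest difference, -1.26 ± 0.254 (adjusted p = 0.0085), being higher under AFZC in both HCT116 libraries and lower in both SW620 libraries. RRP12, an export factor of the ribosomal subunits (chr10:97356358-97426076), had 74.3 and 67.2 CPM under 5-FU and 112 and 105 under AFZC in HCT116, and 94.7 and 96 and then 45.5 and 79.8 CPM in SW620. By edgeR its effect passed in neither line (0.61 ± 0.212 with adjusted p = 0.0899, and -0.61 ± 0.213 with adjusted p = 0.0655), while the difference of -1.22 ± 0.301 did (adjusted p = 0.0241). DESeq2 called 2 of the 5 late 40S genes lower in SW620, where only NOB1, RRP12 and LTV1 (-0.03) were below 0. For NPM1 the difference was -1.07 ± 0.293 (adjusted p = 0.0369). For FBL it was 0.03 ± 0.24 (adjusted p = 0.996), with a 95% interval of -0.49 to 0.55.

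With single libraries left out these 3 calls changed too. The call of DDX21 was lost without replicate 1 of 5-FU in HCT116 (adjusted p = 0.0606), and then 0 members were called, while over all genes 478 were higher and 279 lower in place of 1207 and 884. The size of its difference was at least 0.91 in all 14 other fits. The call of RRP12 was lost without any of the 4 libraries of 5-FU or replicate 1 of AFZC in HCT116 (adjusted p up to 0.112). The call of NPM1 was lost without any library of 5-FU, replicate 2 of AFZC in HCT116 or replicate 1 of AFZC in SW620 (up to 0.152). Both were also lost with library sizes only, where DDX21 had -0.91 and was still called. The count of members was 1 without replicate 2 of 5-FU in HCT116 or either 5-FU library of SW620, and 5 without replicate 2 of AFZC in SW620.

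The larger contrast in these genes was between the lines. Under 5-FU, 7 members were higher in SW620 than in HCT116 and 17 lower, and under AFZC 5 were higher and 27 lower. The shares were 13.2% and 32.1% under 5-FU, where 26.5% and 28.2% of all genes tested were higher and lower, and 9.43% and 50.9% under AFZC, where 25.1% and 24.2% were. The median log2 difference was -0.28 and -0.46 over the members and -0.04 and -0.01 over all genes. The 2 contrasts share no library with each other, though each shares its libraries with the treatment contrasts. Over the 53 members their values had a Pearson correlation of 0.888 and a Spearman correlation of 0.781, given as a description of genes measured in the same 2 lines. In all, 14 members were lower in both, 5 higher in both and 0 went opposite ways past the threshold. Such overlaps were not counted over all genes tested, so they are not read as particular to the members. These counts, medians and correlations include PWP2, the lowest member in both contrasts. Its difference is not read below as one in its mRNA, and the correlations were not computed without it.

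DDX21 and NOB1 led the members that were higher in SW620. DDX21 was 3.78-fold higher under 5-FU (log2 difference 1.92 ± 0.185, edgeR, adjusted p = 2.14e-06) and 0.66 ± 0.18 higher on the log2 scale under AFZC (adjusted p = 0.00867). NOB1 was higher by 1.10 ± 0.142 (adjusted p = 2.72e-05) and 0.69 ± 0.141 (adjusted p = 0.0013), every SW620 library being above every HCT116 library for both genes. LYAR and NPM1 were higher under 5-FU, by 0.76 ± 0.164 and 0.61 ± 0.208 (adjusted p = 0.00169 and 0.024). Under AFZC they had 0.24 ± 0.162 and -0.46 ± 0.207 (adjusted p = 0.241 and 0.0825). FBL was higher by 0.44 ± 0.17 and 0.46 ± 0.17 (adjusted p = 0.0441 and 0.0378), as was UTP4, a UtpA protein also named cirhin, by 0.42 ± 0.168 and 0.47 ± 0.167 (adjusted p = 0.05, just under the threshold, and 0.0341). NIP7, a 60S factor, was the fifth gene higher under both agents (0.43 ± 0.162 and 0.42 ± 0.162, adjusted p = 0.0378 and 0.0473). By DESeq2, UTP4 was called under AFZC but not under 5-FU, and NIP7 under 5-FU but not under AFZC. The calls of DDX21, NOB1 and LYAR under 5-FU and of NOB1 under AFZC were kept in all 14 other fits. That of DDX21 under AFZC was lost without replicate 2 of AFZC in SW620 (adjusted p = 0.0866). That of NPM1 under 5-FU was lost with library sizes only and without replicate 1 or 2 of HCT116 or replicate 2 of SW620 under 5-FU (up to 0.197). Those of UTP4 and FBL under AFZC were each lost without either 5-FU library or replicate 1 of AFZC in HCT116 and without replicate 2 of AFZC in SW620, that of UTP4 also without replicate 2 of AFZC in HCT116 and that of FBL also without either 5-FU library of SW620 (adjusted p up to 0.2 and 0.232).

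Lower in SW620 under both agents were genes of several roles. UTP20, a scaffold of the small subunit processome (chr12:101280109-101386616), stood at 36.1 and 47.2 CPM under 5-FU and 38.6 and 52.8 under AFZC in HCT116, and at 18.5 and 12.3 and then 11.1 and 18.1 CPM in SW620. It was lower by 1.44 ± 0.275 under 5-FU and 1.65 ± 0.275 under AFZC on the log2 scale (adjusted p = 0.000795 and 0.000359). In 60S assembly, RRS1, which brings the 5S particle to the large subunit, had 31.5 and 28.3 and 33 and 44.7 CPM in HCT116 and 12.7 and 11.9 and 8.7 and 15.8 CPM in SW620 (-1.28 ± 0.26 and -1.66 ± 0.261, adjusted p = 0.00107 and 0.000176). BOP1 had 181 and 166 and 197 and 202 CPM in HCT116 and 81.4 and 65 and 69.8 and 68.5 CPM in SW620 (-1.24 ± 0.155 and -1.53 ± 0.156, adjusted p = 2.01e-05 and 4.39e-06). For all 3 genes no SW620 library reached the lowest HCT116 library, and all 3 were called in all 14 other fits under either agent.

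The partners of BOP1 had like signs: WDR12 was lower, at -0.55 ± 0.187 and -0.84 ± 0.188 (adjusted p = 0.0235 and 0.00241), and so was PES1, at -0.79 ± 0.185 under AFZC (adjusted p = 0.00333), against -0.43 ± 0.184 under 5-FU (adjusted p = 0.0656). Of the polymerase I genes, POLR1A (-0.94 ± 0.219 and -1.28 ± 0.22, adjusted p = 0.0029 and 0.0004) and POLR1B (-0.43 ± 0.163 and -0.65 ± 0.163, adjusted p = 0.039 and 0.00535) were lower under both agents. UBTF was lower under 5-FU alone by this test (-0.85 ± 0.176 and -0.35 ± 0.174, adjusted p = 0.00125 and 0.116), and the change of its line difference, which is the difference of treatment effects, did not pass (0.50 ± 0.247, adjusted p = 0.231). NCL was lower under AFZC by the test, with -0.47 ± 0.21 and -1.0 ± 0.212 (adjusted p = 0.0767 and 0.00169). NOP56 was lower, at -0.63 ± 0.201 and -0.95 ± 0.202 (adjusted p = 0.0179 and 0.00177), unlike FBL of the same particle. As single libraries were left out, the number of calls changed under both agents, over all genes as over the members. The median of the members then ran from -0.366 to -0.198 under 5-FU and from -0.706 to -0.295 under AFZC. Library sizes only gave 3 members higher and 32 lower under 5-FU, where 4267 and 7714 of all 21378 genes tested were higher and lower.

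**Figure D4:**
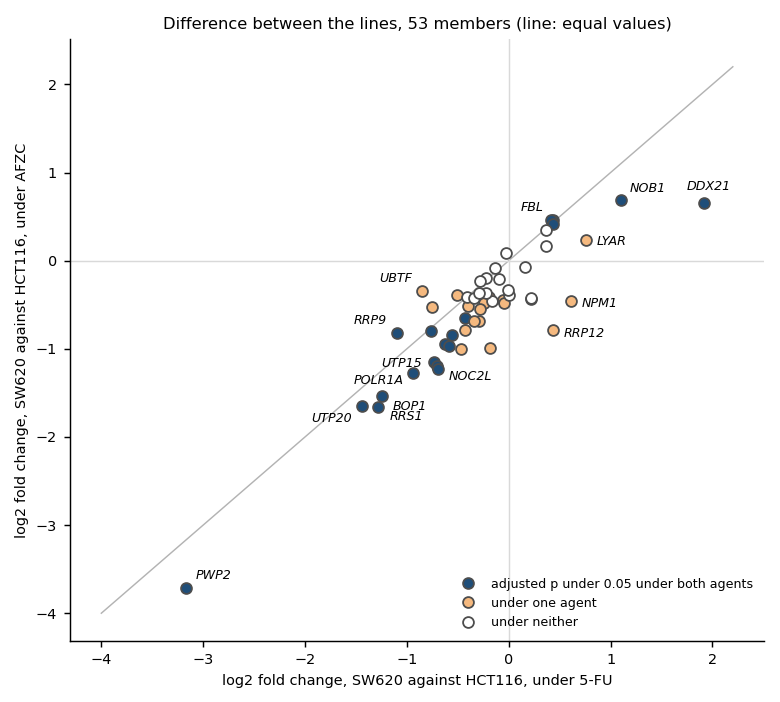
Log2 difference SW620 against HCT116 of each of the 53 members under 5-FU (x axis) and under AFZC (y axis), filled by whether the adjusted p was under 0.05 under both agents, under one or under neither; the grey line marks equal values. Most points lie below 0 on both axes, PWP2 stands at -3.17 and -3.72, and DDX21 and NOB1 lie highest on the x axis.

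PWP2, a UtpB protein of the small subunit processome (chr21:44107290-44131181), had by far the largest line difference among the members, -3.17 ± 0.414 under 5-FU and -3.72 ± 0.417 under AFZC (adjusted p = 4.93e-05 and 1.85e-05). It had 686, 667, 832 and 1239 counts in the HCT116 libraries and 63, 70, 38 and 115 in the SW620 libraries, in the order 5-FU replicates 1 and 2, AFZC replicates 1 and 2. Of its 50-base words, 88.2% also occur in FP565260.1, a separate gene of the annotation, whose counts went the other way: 426, 434, 431 and 525 in HCT116 and 868, 819, 1030 and 1042 in SW620. Summed over both genes the level was 32, 30.9, 33.4 and 48.9 CPM in HCT116 and 32, 26.8, 30.0 and 32.3 CPM in SW620, so the summed libraries of the lines overlap. PWP2 took 60.6% to 70.2% of the summed counts in HCT116 and 3.56% to 9.94% in SW620. How reads common to both genes were assigned was not tested here, and the difference of PWP2 alone is not read as a difference in its mRNA.

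**Figure D5:**
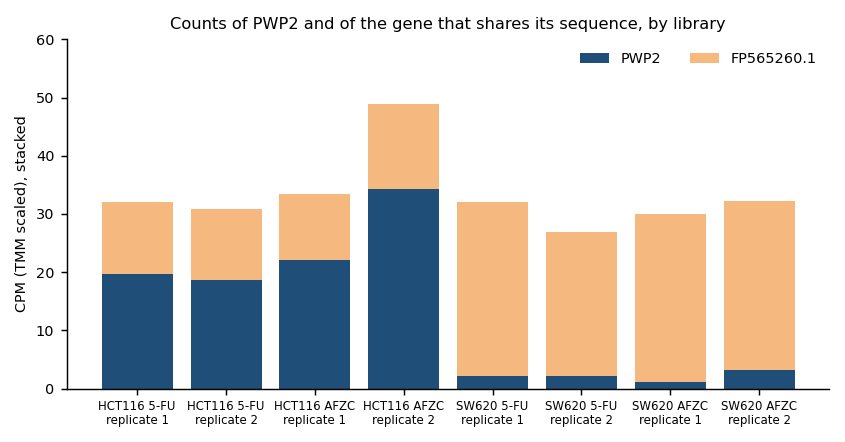
CPM of PWP2 (dark) and of FP565260.1 (light) stacked for each library. The summed bars stand between 26.8 and 48.9 CPM in all 8 libraries, while PWP2 fills most of the bar in HCT116 and at most 3.21 CPM of it in SW620.

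The rest of the pathway was counted over 103 further genes of polymerase I, small nucleolar RNPs and both subunits, all of them tested. In HCT116 4 were higher under AFZC (3.88%, where 5.87% of all genes were) and 1 lower (0.971%, where 3.74% were), so neither share was above that of all genes. RCL1, a processome component, had 24.7 and 24.8 and then 40.8 and 48.7 CPM (0.85 ± 0.184, adjusted p = 0.0125). URB1, a 60S assembly factor, had 86.3 and 114 and then 163 and 180.1 CPM (0.77 ± 0.169, adjusted p = 0.0132), and PNO1, a partner of NOB1, had 0.70 ± 0.204 (adjusted p = 0.0494). PNO1 was called in only 7 of 15 other fits, its call being lost with the size factors of DESeq2 in edgeR and without any of the 4 HCT116 libraries or either 5-FU library of SW620. The call of RCL1 was lost without either 5-FU library or replicate 2 of AFZC in HCT116, and that of URB1 without replicate 1 of 5-FU. The 1 lower was TSR2, an escort of a 40S protein (-0.63 ± 0.157, adjusted p = 0.024). Its call was lost without either 5-FU library or replicate 1 of AFZC in HCT116. In SW620 1 was higher, NOL8 (0.58 ± 0.177, adjusted p = 0.0374), and 9 were lower, that is 0.971% and 8.74%, where 11.6% and 6.95% of all genes tested were higher and lower. TAF1D, of the selectivity factor of polymerase I, fell from 354 and 476 to 131 and 195 CPM (-1.35 ± 0.21, adjusted p = 0.000976). UTP14A, of the processome, and RSL24D1, of 60S assembly, followed at -0.83 ± 0.218 and -0.82 ± 0.211 (adjusted p = 0.0196 and 0.0178). Both calls were lost with library sizes only (edgeR, adjusted p = 0.157 and 0.121) and without replicate 1 of 5-FU or AFZC in SW620. That of RSL24D1 was also lost without replicate 2 of 5-FU there. The call of NOL8 was lost without either 5-FU library of HCT116 or replicate 2 of 5-FU or AFZC in SW620, while TAF1D was called in all 15 other fits. The medians were 0.17 in HCT116 and -0.11 in SW620, close to the 0.13 and -0.11 of the members. With library sizes only, 27 of these genes were higher and 1 lower in SW620, where 5141 and 445 of all 21378 genes tested were.

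MYC itself did not pass the test in either line. It stood at 473 and 441 CPM under 5-FU and 445 and 478 under AFZC in HCT116 (0.02 ± 0.199, adjusted p = 0.994, 95% interval -0.42 to 0.45), with overlapping groups, and at 575 and 464 and then 314 and 464 CPM in SW620 (-0.42 ± 0.2, adjusted p = 0.166, 95% interval -0.85 to 0.01). Between the lines it had 0.19 ± 0.199 under 5-FU and -0.25 ± 0.199 under AFZC (adjusted p = 0.45 and 0.326). Of the 12 genes of the MYC and MAX network, 0 were called in HCT116 by edgeR (4 higher and 1 lower at an unadjusted p under 0.05, 3 and 0 by DESeq2). Of all genes tested there, 5.87% were higher and 3.74% lower. The network's shares in SW620 were 8.33% higher and 8.33% lower, where 11.6% and 6.95% of all genes tested were. In SW620 MXD3, a MAX partner that opposes MYC, was higher, with 12.7 and 14.1 CPM under 5-FU and 36 and 19.1 under AFZC (1.04 ± 0.259, adjusted p = 0.0151). MNT, another such partner, was lower, with 66 and 73.5 and then 36.6 and 33.5 CPM (-0.99 ± 0.163, adjusted p = 0.00138). MXD3 and MNT share 40.4% and 12.2% of their exon bases with other genes, and the libraries kept no strand. In the difference of effects 1 of the 12 was higher and 3 lower (8.33% and 25%, against 5.65% and 4.14% of all genes). Between the lines 3 were higher and 5 lower under 5-FU (25% and 41.7%, against 26.5% and 28.2%). Under AFZC 5 were higher and 5 lower (41.7% each, against 25.1% and 24.2%).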

How the data were processed

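The authors deposited 1 table of raw read counts by gene symbol and library, used here unchanged. Per the labels' protocols, polyadenylated RNA was used and the libraries kept no strand. Per the submitters' processing notes, the tools were edgeR, DESeq2, featureCounts, STAR, HISAT2, cutadapt, Trimmomatic and FastQC, with GRCh38. Which aligner made the counts, and how reads with several alignments and mates were counted, is not given in the sources used here. No column was left out.

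Counts were filtered with filterByExpr (minimum count 10), scaled with TMM and fitted in edgeR 4.0.16 (R 4.3.3) as 1 robust quasi-likelihood model with 4 group means over 8 libraries, with 4 residual degrees of freedom. Treatment effects, their difference and line differences were contrasts of that fit, two-sided, with Benjamini-Hochberg adjustment over all 21378 genes and a threshold of 0.05. The SE is the size of the log2 fold change over the square root of F. The common dispersion gave a coefficient of variation of 19.9%. Replicates were compared by a chi-square test of their counts (20.9 to 51.5 per degree of freedom), and none was a copy of another. TPM used the deposited exon lengths. Alternatives were DESeq2 1.42.0, its size factors in edgeR, library sizes only, no filter, a minimum count of 50, each line alone, a replicate block and leaving out each library. Exons shared with other genes, and 50-base words shared with other GENCODE 29 transcripts, were counted for each member, since the counting was without strand. At least 10% of exon bases were shared by 14 members and at least 10% of words by 17, among them POLR1C, RRN3, NPM1, HEATR1, TBL3, WDR3, NOP14, NOB1, LTV1, TSR1, NIP7 and NOP16.

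The members and lists were chosen with earlier results of these data known. Named were the 6 largest called rises and falls per treatment contrast, the 4 largest per direction in the other contrasts, 3 per direction from the further pathway genes, and, whatever their result, POLR1A, POLR1B, RRN3, UBTF, NCL, NPM1, FBL, NOP56, NOP58, NOP2, NAT10, BOP1, PES1, WDR12, NOB1, LTV1 and MYC. NIP7, TBL3, PWP2 in HCT116, PPAN, RRP1, NOP14, UTP4 and NOP16 as ends of ranges, NPM1P27, FP565260.1, MXD3, MNT and the marker genes were named after their values were seen. Promoter windows were from RefSeq.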

Additional observations from a re-analysis of the deposited data

Results flagged for a closer look

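For 3 members the effect of AFZC differed between the lines by a test of the difference itself (edgeR, SW620 minus HCT116, log2). It was -1.26 for DDX21 (adjusted p = 0.0085), which was higher under AFZC in 2 of 2 HCT116 libraries and lower in 2 of 2 SW620 libraries. It was -1.22 for RRP12 (adjusted p = 0.0241), with the same pattern over the libraries. It was -1.07 for NPM1 (adjusted p = 0.0369), which was lower in both SW620 libraries under AFZC and overlapped in HCT116. At this threshold 5.66% of the members and 4.14% of all genes tested had a lower difference. As given above, the calls of RRP12 and NPM1 were lost with library sizes only and when several single libraries were left out. That of DDX21 was lost without replicate 1 of 5-FU in HCT116.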

How the results depend on the processing

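The called members and further pathway genes named by the rule above, for the treatments, their difference or the leading line differences, kept their direction under every alternative run. The median of the members in SW620 and of the difference of effects changed sign under some. MXD3, MNT, NPM1P27 and the marker genes were not followed under the alternatives. As single libraries were left out, the calls over all genes tested changed too, and the counts of members and the medians ran as follows. In HCT116, 0 to 7 members were higher, 0 to 2 lower, 0 to 6 further pathway genes higher and 0 to 4 lower, with a median of 0.04 to 0.23. In SW620, 0 to 1 members were higher, 2 to 8 lower, 0 to 2 further genes higher and 3 to 17 lower, with a median of -0.334 to 0.0542. For the difference of effects, 0 to 5 members were lower and 0 higher, with a median of -0.424 to -0.0836. Between the lines, 3 to 8 members were higher and 10 to 20 lower under 5-FU (median -0.37 to -0.20), and 1 to 6 higher and 17 to 35 lower under AFZC (median -0.71 to -0.30). Where a group was left with 1 library, that library is assumed to vary like the others.

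With library sizes only, SW620 had 12 members higher, a median of 0.26, and 27 further genes higher and 1 lower. Of all 21378 genes tested there, 5141 were higher and 445 lower. The difference of effects had 1 member lower and a median of 0.0628, where 430 of all genes were lower. The lines under 5-FU gave 3 members higher, 32 lower and a median of -0.58, where 4267 and 7714 of all genes were higher and lower. With DESeq2, 2 members and 2 further genes were lower in HCT116, and 5 members were lower and 2 further genes higher in SW620. Without the filter, 4 further genes were lower in HCT116 and 7 members lower in SW620. With a minimum count of 50, 3 further genes were higher in SW620. With HCT116 alone, 3 further genes were lower. The causes were not tested.

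The replicate numbers carry no stated pairing, and the deviations of libraries of the same number from their group means correlated at 0.02 in HCT116 and -0.03 in SW620 across genes. With the replicate block within each line, 2 further genes were lower in HCT116, and 4 members were higher and 12 lower under 5-FU, and 2 higher and 19 lower under AFZC, between the lines. Under this block the calls of WDR43, BYSL and PNO1 in HCT116, of NPM1 between the lines under 5-FU, and of UTP4 and FBL between the lines under AFZC were lost. The number of libraries limits precision: 2 in each group leave 4 residual degrees of freedom.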
